A study of Homo sapiens with 6 samples.

Results

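The SLC38 genes encode sodium-coupled neutral amino acid transporters, and 7 of them (SLC38A1, SLC38A2, SLC38A5, SLC38A6, SLC38A7, SLC38A9 and SLC38A10) were followed here among 35052 genes. They were listed by name, with results of these libraries known: SLC38A10 was chosen by its low p-value between the groups, and SLC38A2 was set beside it as the stress-responsive member. All differences of members between the groups are therefore given as a description, and no test of a member is used as support. The estimated reads of all transcripts of a gene were added up in each library.

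The libraries came from EoL-1, an established line derived from human eosinophilic leukaemia, grown in a standard medium with serum and a supplement that contains glutamine. 3 libraries were labelled ATF3/JUN double knockout and 3 JUN knockout, and the protocol names CRISPR/Cas9 for the ATF3 edit. Every library thus carried the JUN knockout, and the comparison asked what loss of ATF3 added to it. No unedited cells were analysed here. JUN and ATF3, both basic leucine zipper transcription factors, can form a dimer on DNA. The sources used here do not give the edited alleles. Whether libraries of 1 group were separate clones or repeat cultures is also not stated, so that any p-value measures the spread between these libraries, which may be technical. A double knockout library and the JUN knockout library with its replicate number share a code in their file names, whose meaning is not stated.

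Depth was 26146998, 27081713 and 29567970 estimated reads in the double knockout, against 27489269, 29032697 and 27344031 in the JUN knockout. CPM is the estimated count scaled to a common library total with TMM factors, and it compares libraries for 1 gene. TPM also divides by transcript length and is used here to compare genes. ATF3 mRNA was at 13.1, 10.0 and 7.63 CPM in the double knockout, against 20.2, 13.7 and 8.89 CPM in the JUN knockout, and JUN mRNA was at 13.8, 16.6 and 25.7 CPM, against 13.2, 27.2 and 24.6 CPM. mRNA levels do not check these edits, since an edited allele can still be transcribed. Of 16 eosinophil markers, CLC, EPX, PRG3, IL5RA, GATA1 and HDC were at 0 in all 6 libraries, while RNASE2, a granule ribonuclease, was at 30.2 to 95.8 CPM. The labelled eosinophil cell type was thus carried by few of its defining mRNAs. In bulk RNA, fewer cells with an mRNA and less of it per cell cannot be told apart.

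SLC38 proteins move small neutral amino acids such as glutamine, alanine and asparagine across membranes, driven by the sodium gradient where they sit at the cell surface. SLC38A1 and SLC38A2 form the surface activity called system A, and SLC38A5 belongs to system N, which exchanges protons for sodium and amino acid and prefers glutamine, asparagine and histidine. SLC38A7 exports glutamine and asparagine from lysosomes, and SLC38A9 is the lysosomal transporter that senses arginine for the growth kinase complex mTORC1. SLC38A10 has been placed in the endoplasmic reticulum and Golgi, and SLC38A6 is little characterised. SLC38A2 is a well known target of ATF4, the transcription factor of the amino acid starvation response, through an element inside the gene.

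A pair of transcripts in each of 2 genes carries most of the values within SLC38A10 and SLC38A2 that are given further on. Each pair is told apart by 1 junction in the coding sequence. The sequences are from GENCODE 29 on GRCh38, read 5′ to 3′ on the minus strand, with the shared bases in lower case and the bases after the junction in capitals. SLC38A10-201 reads on into the intron (chr17:81251463-81251522), while SLC38A10-202 is spliced to the next exon, whose first 30 bases are chr17:81247032-81247061.
SLC38A10-201: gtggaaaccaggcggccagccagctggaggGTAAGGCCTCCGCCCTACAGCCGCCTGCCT
SLC38A10-202: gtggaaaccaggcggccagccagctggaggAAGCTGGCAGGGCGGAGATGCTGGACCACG
In SLC38A2, the protein-coding SLC38A2-201 joins exon 3 to exon 4 (capitals from chr12:46370598-46370627), and SLC38A2-208, which is annotated as a target of nonsense-mediated decay, skips exon 4 with its 116 bases (capitals from chr12:46367311-46367340).
SLC38A2-201: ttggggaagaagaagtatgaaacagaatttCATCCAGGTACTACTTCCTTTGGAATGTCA
SLC38A2-208: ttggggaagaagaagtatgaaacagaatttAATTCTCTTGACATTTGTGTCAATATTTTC
The reading frame of SLC38A2-208 ends after 88 codons, against 506 codons in SLC38A2-201. SLC38A10-201 encodes 780 codons and SLC38A10-202 encodes 1119, and they share 2065 coding bases.

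SLC38A10 was the member with the largest difference between the groups. SLC38A10 (ENSG00000157637, chr17:81245000-81295547 on the minus strand, GRCh38) was at 113, 121 and 115 CPM in the double knockout, against 80.7, 89.0 and 85.0 CPM in the JUN knockout. The groups did not overlap, and the 3 libraries within each group lay close together, at 117 ± 4.11 and 84.9 ± 4.19 CPM (SD, n = 3 each). The log2 fold change, double knockout minus JUN knockout, was 0.46 (SE 0.08), a fold of 1.37, and the same-numbered libraries differed by 0.49, 0.44 and 0.44 on the log2 scale. Per length, SLC38A10 was at 45.8, 49.5 and 45.1 TPM in the double knockout, against 36.2, 35.5 and 33.6 TPM in the JUN knockout. These are the values that brought SLC38A10 into the list, and nothing is read from their size. No gene of the 12954 tested passed an adjusted p of 0.05 in edgeR (0.0%, with 753 at an unadjusted p under 0.05), and so no member did. DESeq2 passed 71 genes (0.548%), 30 of them higher in the double knockout (0.232%), and limma-voom passed 4 (0.0309%), 2 of them higher (0.0154%). SLC38A10 was the 1 member of 7 among the genes that DESeq2 passed as higher, from which nothing is read, since the same contrast chose it. No member was among those of limma-voom.

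SLC38A2, the surface transporter of system A that amino acid starvation induces, differed between libraries of 1 group far more than between the groups. SLC38A2 (ENSG00000134294, chr12:46358189-46372867 on the minus strand) was at 470, 436 and 279 CPM in the double knockout, against 480, 390 and 299 CPM in the JUN knockout. Replicate 3 was the lowest and replicate 1 the highest of both groups, and the groups overlapped almost completely. Its log2 fold change was 0.02 (SE 0.24), and the same-numbered libraries differed by −0.03, 0.16 and −0.10. With a replicate block in the fit, the log2 fold change was 0.01 (SE 0.08). The difference between the log2 fold changes of SLC38A10 and SLC38A2 was 0.44. It lay between 0.22, with JUN knockout replicate 1 left out, and 0.60, with double knockout replicate 1 left out, and was 0.25 when double knockout replicate 3 was left out. SLC38A10 reads amounted to 24.1%, 27.8% and 41.4% of SLC38A2 reads in the double knockout, against 16.8%, 22.8% and 28.4% in the JUN knockout. The 2 groups overlapped in this ratio, although each double knockout library lay above the same-numbered JUN knockout library.

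**Figure D1:**
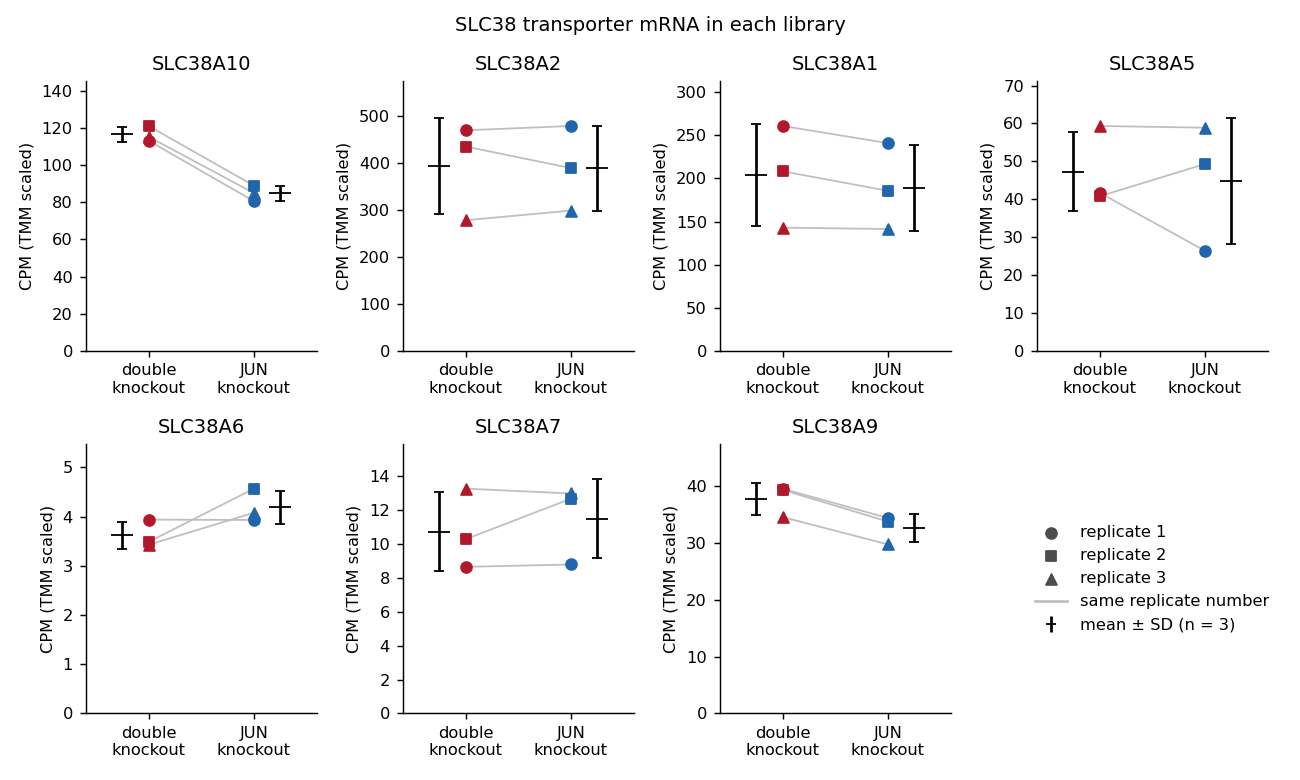
CPM of the 7 members in each library, with 1 panel per gene, a vertical axis from 0 and the double knockout (red) left of the JUN knockout (blue). Grey lines join same-numbered libraries and black bars give mean ± SD (n = 3). SLC38A10 lay at 113 to 121 CPM in the double knockout, against 80.7 to 89.0 CPM in the JUN knockout, while SLC38A2 spread from 279 to 480 CPM over both groups.

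SLC38A1, the other system A transporter of the cell surface, lies 88171 bases from SLC38A2 and followed it from library to library. SLC38A1 (ENSG00000111371, chr12:46183063-46270017 on the minus strand) was at 261, 208 and 143 CPM in the double knockout, against 241, 186 and 141 CPM in the JUN knockout. With overlapping groups, the log2 fold change was 0.11 (SE 0.26), and the same-numbered libraries differed by 0.11, 0.17 and 0.02. With a replicate block in the fit, the log2 fold change was 0.10 (SE 0.08). SLC38A2 held 1.80 to 2.12 times the reads of SLC38A1 in the 6 libraries, a range far narrower than that of either gene.

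SLC38A5, the system N glutamine transporter, ran the other way. SLC38A5 (ENSG00000017483, chrX:48458537-48470256 on the minus strand) was at 41.7, 40.8 and 59.3 CPM in the double knockout, against 26.4, 49.3 and 58.9 CPM in the JUN knockout. Replicate 3 was the highest of both groups, and JUN knockout replicate 1 stood lowest. The log2 fold change was 0.08 (SE 0.30), while the same-numbered libraries differed by 0.65, −0.27 and 0.01, so that the pairs did not share a direction.

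Of the lysosomal members, SLC38A9 had groups that did not overlap. SLC38A9 (ENSG00000177058, chr5:55625845-55773194 on the minus strand) was at 39.6, 39.3 and 34.6 CPM in the double knockout, against 34.4, 33.8 and 29.8 CPM in the JUN knockout. The lowest double knockout library and the highest JUN knockout library were less than 1 CPM apart. The log2 fold change was 0.21 (SE 0.10), and the pairs differed by 0.20, 0.22 and 0.21. SLC38A9 and SLC38A10 were thus the 2 of 7 members with every double knockout library above every JUN knockout library, where 6.31% of all tested genes had this pattern. No member had the opposite pattern, which 5.94% of tested genes had (12.3% had either). The list was chosen with these values known, and nothing about the family is read from this count. DDX4 and a pseudogene overlap SLC38A9 in the annotation, and the strand setting of the counting is not given in the sources used here. On the opposite strand, AC027601.4 and AC027601.5 overlap SLC38A10, and AC025031.2 overlaps SLC38A2. None of these had a transcript among those matched.

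SLC38A7, the lysosomal exporter of glutamine and asparagine, was a low mRNA. SLC38A7 (ENSG00000103042, chr16:58665109-58685104 on the minus strand) was at 8.64, 10.3 and 13.3 CPM in the double knockout, against 8.78, 12.7 and 12.97 CPM in the JUN knockout. Replicate 1 was the lowest library of both groups, and the log2 fold change was −0.10 (SE 0.22).

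SLC38A6 was the member with the fewest reads. SLC38A6 (ENSG00000139974, chr14:60981114-61083733 on the plus strand) held 92 to 127 estimated reads per library. It was at 3.94, 3.49 and 3.43 CPM in the double knockout, against 3.93, 4.57 and 4.08 CPM in the JUN knockout. The groups overlapped through replicate 1, and the log2 fold change was −0.21 (SE 0.17). TRMT5 overlaps it on the opposite strand.

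The other SLC38 genes were at or near 0. SLC38A3, SLC38A4 and SLC38A11 had no reads in any library, and SLC38A8 had 1 read in double knockout replicate 2. A count of 0 allows up to 3 reads per library, or 0.106 to 0.121 CPM, for counting error. TMEM104, which the RefSeq names also list as SLC38A12, was at 38.6, 39.5 and 48.2 CPM in the double knockout, against 36.7, 35.8 and 37.6 CPM in the JUN knockout, a log2 fold change of 0.20 (SE 0.11).

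**Figure D2:**
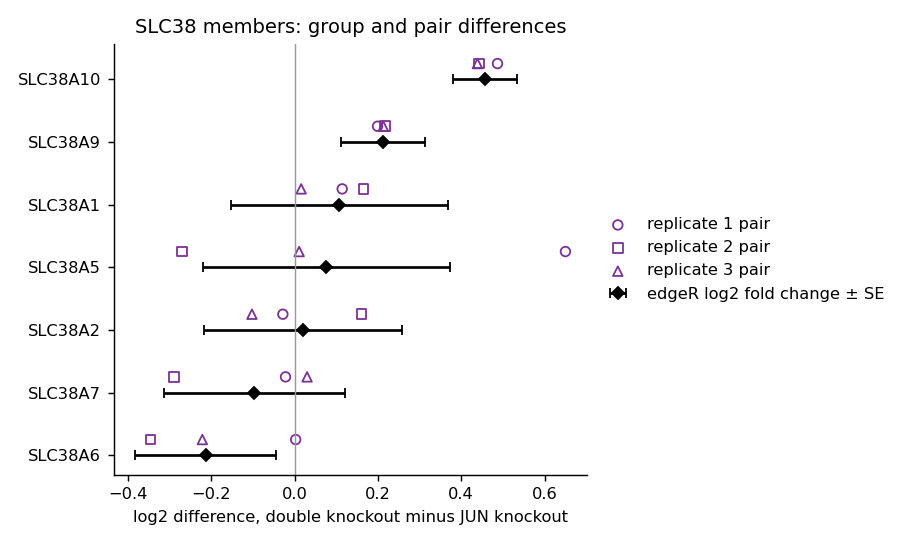
Log2 difference, double knockout minus JUN knockout, of each member on the horizontal axis. Black diamonds give the edgeR log2 fold change ± SE and open symbols the 3 same-numbered pairs. The pairs of SLC38A10 (0.44 to 0.49) and of SLC38A9 (0.20 to 0.22) lay close together, while those of SLC38A5 ran from −0.27 to 0.65.

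Set against each other per length, the members fell into 3 levels. SLC38A2 was the highest in all 6 libraries, at 149, 152 and 78.2 TPM in the double knockout, against 175, 115 and 88.7 TPM in the JUN knockout. Its lowest library was above the highest library of any other member. It made up 45.9 ± 7.98% of the members' summed TPM in the double knockout and 50.1 ± 7.87% in the JUN knockout (SD, n = 3 each). SLC38A10, SLC38A1, SLC38A5 and SLC38A9 formed the middle level, between 14.9 and 49.5 TPM, and their order changed between libraries. SLC38A10 stood second in all 3 double knockout libraries, where it lay above each of the other 3, and in second or the third place in the JUN knockout, where it overlapped with SLC38A1 and SLC38A5. SLC38A10 made up 17.7 ± 3.02% of the summed TPM in the double knockout and 14.5 ± 2.15% in the JUN knockout.

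SLC38A1 was at 40.5, 36.7 and 21.3 TPM in the double knockout, against 38.9, 24.7 and 21.0 TPM in the JUN knockout. SLC38A5 was at 28.7, 27.6 and 37.4 TPM, against 14.9, 32.4 and 34.3 TPM, and so exceeded SLC38A1 in replicate 3 of both groups and in JUN knockout replicate 2. SLC38A9 was at 24.6, 28.1 and 22.4 TPM in the double knockout, against 25.3, 20.4 and 20.6 TPM in the JUN knockout, so that its groups overlapped on this scale. At the bottom, SLC38A6 was at 3.86 to 5.24 TPM and SLC38A7 at 2.79 to 4.17 TPM. Their ranges over the 6 libraries overlapped, but SLC38A6 was above SLC38A7 in each library. By protein-coding transcripts, SLC38A6 was at 2.31, 1.90 and 2.89 TPM in the double knockout, against 2.07, 2.67 and 2.27 TPM in the JUN knockout. SLC38A7 was at 1.81, 2.43 and 2.93 TPM, against 1.97, 2.72 and 2.64 TPM, so that this order held in replicate 1 alone. Over all transcripts, the mRNA of the surface transporter SLC38A2 was thus the most abundant of the family per length. That of SLC38A10 was of the same order as that of the surface transporter SLC38A1. Protein-coding transcripts made up a mean of 54.2% of SLC38A2 TPM in the double knockout and 55.2% in the JUN knockout. For SLC38A10 these means were 58.1% and 56.0%.

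Within SLC38A10, the longest coding transcript held the largest share of the difference. SLC38A10-202 had 913, 1120 and 1112 estimated reads in the double knockout, against 616, 687 and 614 in the JUN knockout. Its mean level was 39.5 ± 2.89 CPM in the double knockout and 23.7 ± 1.05 CPM in the JUN knockout (SD, n = 3 each), a log2 ratio of 0.74. SLC38A10-201, which ends in the intron shown above, had 1001, 1097 and 1046 reads in the double knockout, against 820, 930 and 826 in the JUN knockout, a log2 ratio of 0.32. SLC38A10-202 thus accounted for 49.9% of the summed difference in CPM and SLC38A10-201 for 24.6%.

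As a share of the gene's reads, SLC38A10-202 was at 32.4%, 35.0% and 34.0% in the double knockout, against 28.05%, 27.8% and 27.8% in the JUN knockout. The groups did not overlap. SLC38A10-201 was at 35.5%, 34.3% and 32.0% in the double knockout, against 37.4%, 37.6% and 37.4% in the JUN knockout. By share of TPM the difference for SLC38A10-202 was 3.56 percentage points, against 5.96 by share of reads. The retained-intron transcripts SLC38A10-203 and SLC38A10-210 had log2 ratios of 0.25 and 0.31, also with no overlap between the groups. These transcripts add up to the gene value that chose SLC38A10. How often transcripts of other genes separate was not counted, and nothing is read from the lack of overlap. The transcript shares are estimates, since both coding transcripts have most of their coding bases in common. The version of SLC38A10-202 behind the files was 4491 bases long, against 4300 bases in GENCODE 29. That of SLC38A2-201 was 4795 bases long, against 4888 bases.

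Within SLC38A2, the transcript that skips exon 4 moved with the level of the gene. SLC38A2-208 held 11.0%, 10.7% and 4.81% of the gene's reads in the double knockout, against 9.15%, 5.00% and 1.47% in the JUN knockout. Its share was highest in replicate 1 and lowest in replicate 3 of both groups, in the order of the gene's own CPM. Each double knockout library was above the same-numbered JUN knockout library, while the groups overlapped. The protein-coding SLC38A2-201 held 81.5%, 80.1% and 87.5% of the reads in the double knockout, against 83.4%, 88.0% and 90.8% in the JUN knockout. The protein-coding SLC38A2-209 held 2.86% of the reads over the 6 libraries. It was at 11.5, 16.3 and 11.0 CPM in the double knockout, against 8.60, 10.1 and 9.69 CPM in the JUN knockout. These groups did not overlap, and how often transcripts of other genes separate was not counted.

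In the other members, 1 transcript usually dominated. SLC38A1-201 carried 97.1% of SLC38A1 reads over the 6 libraries, SLC38A5-213 carried 84.1% and SLC38A7-201 carried 82.1%. SLC38A9 reads were split unstably between annotated coding transcripts, with SLC38A9-203 at 16.7% to 61.7%, so that no transcript of it is compared. SLC38A6 had too few reads for its leading transcript, SLC38A6-202 with 36.6%, to be followed.

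**Figure D3:**
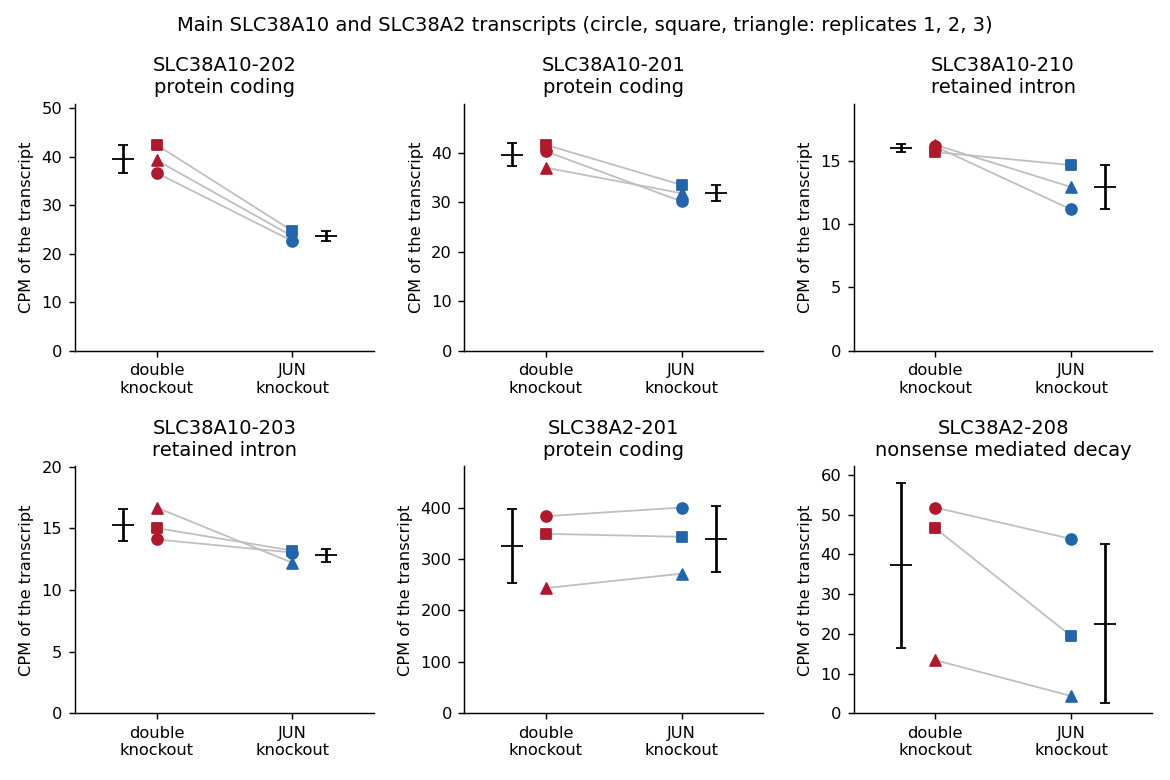
CPM of the main SLC38A10 and SLC38A2 transcripts in each library, with the double knockout (red) left of the JUN knockout (blue), grey lines between same-numbered libraries and black bars for mean ± SD (n = 3). SLC38A10-202 averaged 39.5 CPM in the double knockout and 23.7 CPM in the JUN knockout, and SLC38A2-208 was lowest in replicate 3 of both groups.

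Averaged over both groups, replicate 1 minus replicate 3 was 0.82 for SLC38A1 and 0.72 for SLC38A2 on the log2 scale, and −0.82 for SLC38A5 and −0.56 for SLC38A7. For SLC38A10 it was −0.05, for SLC38A6 0.06 and for SLC38A9 0.20. The range of the 3 replicate-number means was wider than in 94.2% of tested genes for SLC38A1 and SLC38A5 and than in 92.0% for SLC38A2, but wider than in 20.5% for SLC38A10. The size of the group difference was in turn larger than in 92.8% of tested genes for SLC38A10, whose contrast chose it, and than in 9.22% for SLC38A2. Since the group contrast chose SLC38A10, nothing is read from its place on either measure.

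Across the 6 libraries, log2 CPM of SLC38A1 and SLC38A2 had a Pearson r of 0.97, and SLC38A5 and SLC38A7 one of 0.85. SLC38A2 had an r of −0.86 with SLC38A5 and of −0.90 with SLC38A7, so that the surface transporters of system A were high where SLC38A5 and SLC38A7 were low. SLC38A10 had an r of 0.74 with SLC38A9 and of −0.03 with SLC38A2. These 6 points share 3 file-name codes and 2 groups, and the values describe these libraries. The summed level of 10 monocyte and macrophage markers, most of it from lysozyme (LYZ), was 255, 340 and 579 CPM in the double knockout, against 161, 502 and 492 CPM in the JUN knockout. That sum was lowest in replicate 1 of both groups, as SLC38A7 was, while CD14 was under 0.2 CPM and FCGR3A was at 0. The part of such cells or states in the SLC38 values was not tested.

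The ATF4 response is where SLC38A2 belongs by its known control, and 33 of 37 listed genes of this response were tested. None passed in edgeR between the groups (lowest adjusted p = 0.909), 23 had a log2 fold change above 0, and the median was 0.05, against 0.00 over all tested genes. ATF4 itself was at 727, 643 and 489 CPM in the double knockout, against 718, 664 and 558 CPM in the JUN knockout. SLC7A5, the leucine carrier of the cell surface, was at 1616, 1367 and 954 CPM in the double knockout, against 1540, 1283 and 964 CPM in the JUN knockout. SLC1A5, the glutamine exchanger ASCT2, was at 830, 743 and 503 CPM, against 753, 711 and 563 CPM. All 3 stood highest in replicate 1 and lowest in replicate 3 of both groups, as SLC38A2 did.

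Over the 33 genes, the median Pearson r with SLC38A2 was 0.96, and 26 had an r above 0.8, where 13.1% of all tested genes did. For SLC38A10 the median r with the same genes was 0.01, and 0 of 33 had an r above 0.8, where 3.51% of all tested genes did. Since the group contrast chose SLC38A10, nothing is read from its values of r. MTHFD2, a mitochondrial enzyme of folate metabolism, had an r of 0.996 with SLC38A2, ASNS, the asparagine synthetase, one of 0.988, and ATF4 one of 0.960. Replicate 1 was above replicate 3 for 31 of the 33 genes, against 50.1% of all tested genes, with a median difference of 0.75 on the log2 scale. ALDH18A1, an enzyme of proline synthesis, and SLC6A9, a glycine transporter, had r of −0.88 and −0.39. ASNS, ALDH18A1 and SLC6A9 were picked out after their values were seen. ATF3 mRNA was also highest in replicate 1 and lowest in replicate 3 of both groups.

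**Figure D4:**
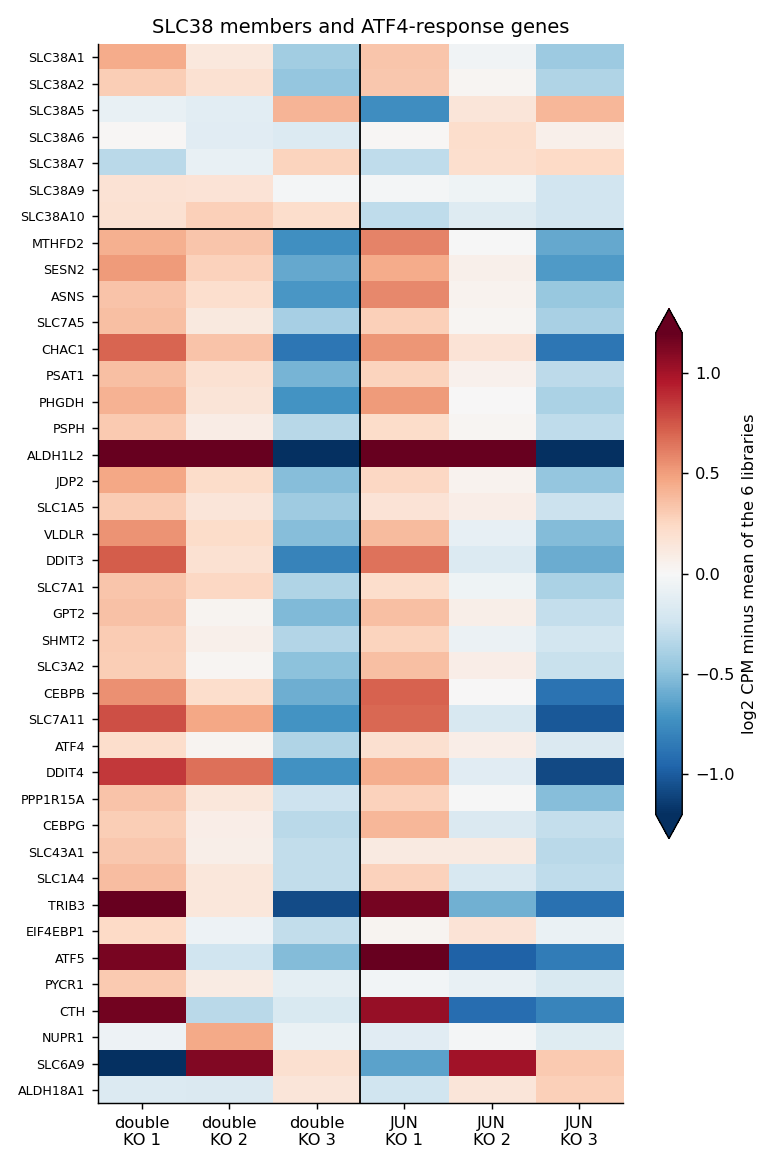
Log2 CPM of the 7 members (top block) and 33 ATF4-response genes (bottom block, ordered by r with SLC38A2), each minus its mean over the 6 libraries, with the 3 double knockout libraries left of the 3 JUN knockout libraries. Red is above and blue below the gene's mean, and deviations beyond the colour scale have its end colours. SLC38A1 and SLC38A2 have the pattern of most of the lower block, red in replicate 1 and blue in replicate 3. In that block, SLC6A9 and ALDH18A1 are lower in replicate 1 than in replicate 3 of both groups. SLC38A10 is red in the double knockout and blue in the JUN knockout.

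Genes whose log2 CPM was most like that of each of these 2 members were sought among 8880 genes with a mean of at least 10 CPM. For SLC38A2 they were RNF214, MTHFD2, PELI2, TAGAP and GLE1, with r of 0.996 to 0.998. For SLC38A10 they were RBM7, a protein that recruits the nuclear RNA exosome (r = 0.993), GAA, the lysosomal glucosidase that digests glycogen (r = 0.990), EEF1A1P13, TMEM69 (r = 0.985) and ARHGAP4 (r = 0.984). GAA was at 36.5, 36.2 and 35.9 CPM in the double knockout, against 26.9, 29.1 and 28.3 CPM in the JUN knockout. RBM7 was at 36.7, 37.7 and 37.0 CPM, against 28.7, 31.8 and 30.7 CPM. EEF1A1P13 is a processed copy of an abundant translation factor, and its reads are uncertain. With 6 points and 8880 genes, these values of r describe the libraries and say nothing of shared control.

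The other transporters and enzymes that handle the same amino acids gave no call in edgeR. The median log2 fold change of all tested genes was 0.00. Their share above 0 was not counted, so nothing is read from the counts above 0 of any list. Of 16 tested amino acid transporters of the plasma membrane outside the family, 11 had a log2 fold change above 0, with a median of 0.10 (lowest adjusted p = 0.919). SLC3A2, the heavy chain that partners SLC7A5, was at 434, 358 and 250 CPM in the double knockout, against 451, 372 and 293 CPM in the JUN knockout. Of 14 tested lysosomal and vesicular transporters, 10 were above 0, with a median of 0.04 (lowest adjusted p = 0.887). MFSD12, a lysosomal cysteine importer, was at 149 ± 6.32 CPM in the double knockout and 147 ± 7.66 CPM in the JUN knockout (SD, n = 3 each). SLC17A9, a vesicular nucleotide transporter, had a log2 fold change of −0.10, and SLC66A1, which exports cationic amino acids from lysosomes, one of 0.03.

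Of 41 genes of lysosomal amino acid sensing and mTORC1, with which SLC38A9 works, 20 were above 0 and 21 below, with a median of −0.02 (lowest adjusted p = 0.854). SEH1L, a subunit of the GATOR2 complex, had a log2 fold change of 0.08, MTOR, the kinase, one of −0.03, and RHEB, the GTPase that activates it, one of −0.10. Of 22 tested genes of glutamine and asparagine metabolism, 14 were above 0, with a median of 0.05 (lowest adjusted p = 0.854). GLUL, the glutamine synthetase, was at 732, 685 and 605 CPM in the double knockout, against 626, 624 and 557 CPM in the JUN knockout, with overlapping groups and a log2 fold change of 0.16 (SE 0.10). The mitochondrial enzymes GLUD1, glutamate dehydrogenase, and IDH2, isocitrate dehydrogenase, had log2 fold changes of −0.03 and 0.02.

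Within 1 Mb of SLC38A10 on chromosome 17, 44 other genes were tested. SLC38A10 was chosen by its value in this contrast and the window after values were seen, so the comparison is a description only. The log2 fold changes of the 44 genes ran from −0.29 to 0.36 with a median of −0.03, and 17 were above 0. SIRT7, a nuclear deacylase, had the lowest value and MAFG, a small partner of basic leucine zipper factors, the highest. MAFG averaged 153 CPM in the double knockout and 119.5 CPM in the JUN knockout. It was the 1 neighbour with every double knockout library above every JUN knockout library, where 6.31% of all tested genes had this pattern. The opposite pattern was found in 2 neighbours, SIRT7 being 1 of them, and in 5.94% of tested genes. Nothing is read from these counts. RPTOR, the mTORC1 subunit that lies in this window, had a log2 fold change of 0.12. These 3 were picked out for their value or role after the values were seen.

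**Figure D5:**
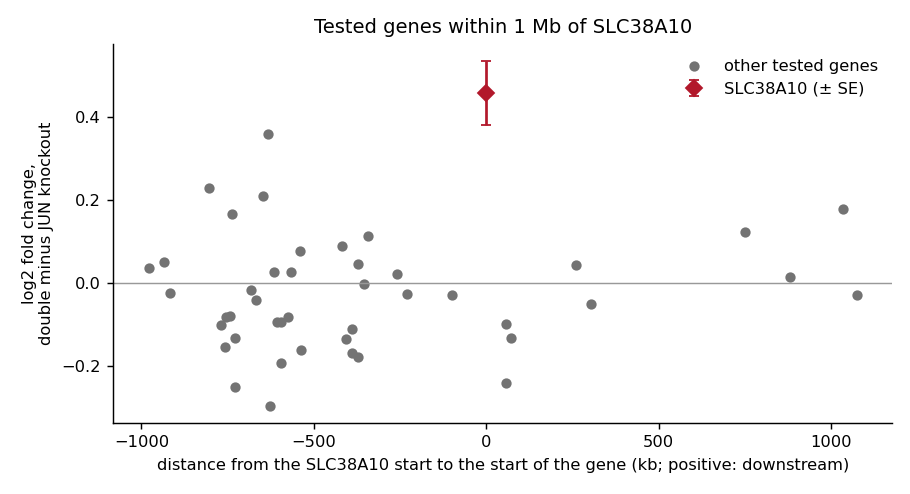
Log2 fold change, double knockout minus JUN knockout, of the 44 tested genes within 1 Mb of SLC38A10 (grey) against the distance between their start and its start in kb, with SLC38A10 in red (bar, SE). SLC38A10 lies at 0.46 and its neighbours between −0.29 and 0.36.

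The 250 bases before each RefSeq gene start (GRCh38.p14, 11 starts of the 7 members) were searched on both strands for 4 motifs. The AP-1 motif TGANTCA, which pairs of JUN and its partners bind, was in 1 promoter of SLC38A1 and 1 of SLC38A9, and in 6.57% of all 35116 promoters. The ATF/CREB motif TGACGTCA (1.65% of all promoters) and the ATF4 composite motif TGATGNAAT (0.888%) were in none of the 11, and the E-box CACGTG was in the promoter of SLC38A5 (6.34%). The promoter windows of SLC38A10 and SLC38A2 held none of these letters and were 70.8% and 73.6% G and C. A match or its lack in this window is a description only.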

How the data were processed

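6 polyA RNA libraries of EoL-1 cells were analysed, 3 per group, grouped by the genotype label. Per the labels' protocols, RNA was extracted with phenol and chloroform and libraries were made with a stranded mRNA kit. Per the submitters' processing notes, the authors used Salmon 1.6.0, FastQC 0.11.9 and the genome build hg38. Per the file headers, the deposited values are, for each library, an estimated count and TPM of 177456 transcripts, and an effective length that was identical in the 6 files. Transcripts were joined to GENCODE 29 without the version number; 167027 (94.1%) matched, and the other 10429, with 3.58% to 3.71% of the reads, were left out.

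The estimated counts of a gene's transcripts were added and rounded. All genes were tested with the quasi-likelihood method of edgeR 4.0.16 in R 4.3.3 (two-sided, filterByExpr, TMM, Benjamini-Hochberg at 0.05), on 12954 genes. CPM used the TMM factors; log2 CPM for correlations used a pseudocount of 0.5. The procedure was tested on simulated data. Alternatives were RLE scaling, no filter, a filter of at least 1 CPM in 3 libraries, DESeq2 1.42.0, limma-voom (limma 3.58.1), a replicate block, a transcript length offset, protein-coding transcripts alone and leaving out each library.

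The main fit had the group as its only term, and each SE is from it unless the replicate block is named. Replicate numbers were treated as pairs only in the differences and means of same-numbered libraries and in the replicate block. Same-numbered libraries share a code in the file names, which the labels do not explain. Their deviations from the mean of the group had correlations of 0.39, 0.10 and 0.52. Number 2 was not set apart, since double knockout replicate 2 had 0.20 with JUN knockout replicate 1, and double knockout replicate 3 had 0.10 with JUN knockout replicate 2.

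Members and gene lists were chosen with earlier results of these data known. Of the 209 list entries 1 had no match. Named genes were the 7 members, ATF3, JUN, the 3 genes with the highest mean CPM of each transporter or metabolism list, and the 5 genes most correlated with SLC38A10 and with SLC38A2; the leading and the absent cell type markers, TMEM104 and the genes so marked in the text were chosen after their values were seen. Counting intervals and floors cover counting error only.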

Additional observations from a re-analysis of the deposited data

How the results depend on the processing

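The log2 fold change of SLC38A10 was above 0 under all 14 alternatives, between 0.41 with the transcript length offset and 0.49 without JUN knockout replicate 2, and 0.42 to 0.49 over the 6 fits that leave out a library. With the replicate block it was 0.46, and the block, too, left 0 genes past the threshold (1268 at an unadjusted p under 0.05), so that the pairing changed no call. The count of genes past the threshold was 0 in edgeR and in each fit without 1 library (0 to 0), against 71 with DESeq2, 4 with limma-voom and 1 with no low-count filter; the cause was not tested. The difference between SLC38A10 and SLC38A2 was 0.22 to 0.60 over the fits without 1 library. The log2 fold changes of SLC38A1 (−0.11 to 0.32), SLC38A2 (−0.14 to 0.22), SLC38A5 (−0.19 to 0.32) and SLC38A7 (−0.28 to 0.04) changed sign when single libraries of replicate 1 or 3 were left out, and SLC38A2 also without double knockout replicate 2 and with protein-coding transcripts alone (−0.07). SLC38A9 stayed between 0.15 and 0.27. SLC38A6 was −0.02 with the length offset. SLC38A10 made up 16.1% of the members' summed TPM over all libraries but 12.4% with CPM per kilobase, and the share of SLC38A10-202 differed by 3.56 points by TPM. SLC38A6, with 92 to 127 reads per library, is limited by depth.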
